A study of Homo sapiens with 12 samples.

Results

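The libraries described here record how wild-type K562 cells responded to palmitate in 3 separate experiments. K562 is a human leukemia line that makes embryonic and fetal globins and is widely used as a model of early red blood cell and megakaryocyte precursors. Members were taken from the labels: the genotype is wild type and the fatty acid given is palmitate or none, which holds for 6 of the 12 libraries of the series, 1 untreated and 1 palmitate library in each of experiments 1, 2 and 3. The untreated group had no fatty acid, and the labels do not say whether it received albumin. The palmitate group had 0.2 mM palmitate bound to bovine serum albumin for 20 h per the labels, whereas text in the files of experiments 2 and 3 gives 16 h. The label gives wild type as the genotype of both groups. The other libraries of the series tested palmitoleate with or without palmitate, a GPAT4 knockout and an RNF213 knockdown. Messenger RNA was selected by its poly(A) tail and sequenced as stranded libraries, and each library was made from RNA of pooled biological triplicates, so the spread given below is that between experiments and not between cultures. Of the 23159 genes shared by the 3 tables, 11108 had a mean of at least 1 FPKM (fragments per kilobase of transcript, scaled to the size of the library) over the 6 libraries and were tested.

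Palmitate is the main saturated fatty acid of diet and of fat synthesis. Cells take it up with the help of albumin, activate it to an acyl-CoA and burn it in mitochondria, desaturate it, or build it into phospholipids, sphingolipids and stored triglyceride. Excess saturated chains in the membrane of the endoplasmic reticulum (ER) are known to activate the sensors PERK, IRE1 and ATF6. PERK slows translation by phosphorylating eIF2 alpha and so favours synthesis of the transcription factor ATF4, the core of the integrated stress response. IRE1 splices the message of XBP1, and ATF6 and XBP1 drive genes of ER chaperones and ER-associated degradation.

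A change is given throughout as the mean of 3 log2 ratios, palmitate over untreated within an experiment, on the log2(FPKM + 1) scale, with limma's moderated standard error (SE, n = 3 experiments) after the ± sign. That error draws each gene's spread toward the spread of genes of like level, so it can be smaller or larger than the error of the gene's own 3 ratios, which is also given for EGR1, IL8, PAEP and S100P. Genes with an adjusted p under 0.05 in limma, a linear model with variance shared across genes, are said to have risen or fallen. Values in each library are listed in the order of experiments 1, 2 and 3. The pseudocount of 1 understates the change of genes near or below 1 FPKM. The filter averages both groups, so a gene below 1 FPKM in 1 group passes only through its values in the other. Counts and medians of lists with such genes lean toward the direction of that other group.

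The 6 libraries held 10496 to 11108 genes at 1 FPKM or more, and RPS18, a protein of the small ribosomal subunit, was the top gene in each. All 14 markers of the K562 line reached 1 FPKM, and their summed level was 10040 to 18270 FPKM in untreated cells and 5184 to 6256 FPKM with palmitate. B cell and endothelial markers stayed below 1 FPKM, with MS4A1, CDH5 and KDR listed at 0. T cell, monocyte, fibroblast and epithelial lists had 2, 2, 1 and 3 members at 1 FPKM or more. Their top members were CD3D, CD68, COL1A2 and KRT19, at up to 33.7, 152.8, 2.885 and 152.6 FPKM. Summed epithelial markers were 90.5 to 110.3 FPKM in untreated cells and 70.37 to 167.8 FPKM with palmitate. Summed T cell markers were 13.59 to 32.6 FPKM in untreated cells and 23.6 to 35.29 FPKM with palmitate. MARCO, LUM, KRT5 and KRT14 were listed at 0. Experiment 1 stood apart from the others in base composition. Across genes, its ratios followed transcript GC content with a Spearman coefficient of -0.62, against -0.016 in experiment 2 and 0.15 in experiment 3. In experiment 1 the median ratio was 0.452 for transcripts with under 40% GC and -0.86 for those over 60%. Ratios of experiment 1 correlated with those of experiments 2 and 3 at Pearson's r of 0.615 and 0.529 across 10518 genes, and at 0.759 and 0.761 once the GC trend was removed. The corresponding r between experiments 2 and 3 was 0.897 and then 0.906. These are descriptions across genes, which share libraries and are not independent replicates. The part of this trend in single results was not tested beyond the counts with the trend removed that stand beside them.

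**Figure D1:**
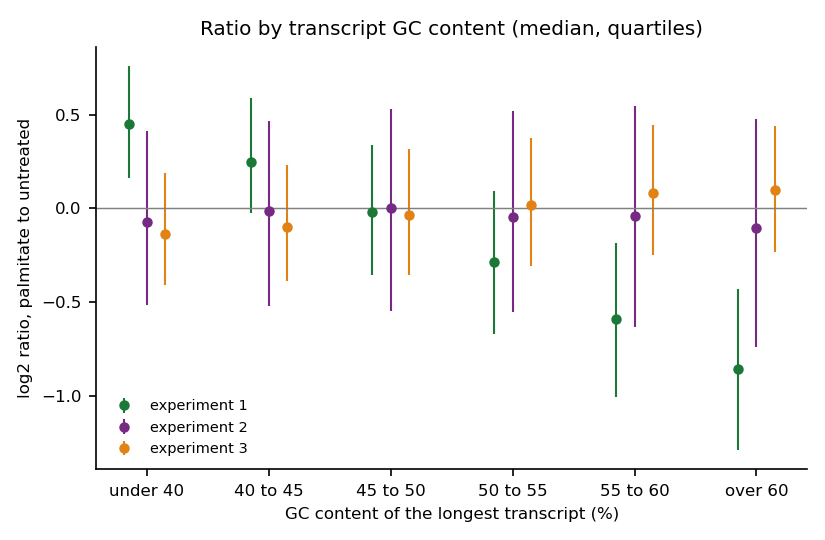
Median log2 ratio of palmitate to untreated (vertical axis) of genes grouped by the GC content of their transcript in percent (horizontal axis). Each group has 1 point per experiment, with a bar from the lower to the upper quartile. The points of experiment 1 fall from 0.452 to -0.86 between the lowest and highest GC group. Those of the other experiments stay within -0.135 to 0.096 at these ends.

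With palmitate, 1036 of the 11108 genes rose (9.33%) and 835 fell (7.52%). The palmitate libraries lay above all untreated libraries for 1727 genes (15.5%) and below all of them for 1603 genes (14.4%). Counts in the gene lists below are to be read beside these shares. A list with few calls may hold no more than they give. Of the 1871 genes that changed, 1866 had 3 ratios of equal sign, and the 5 exceptions were small RNA genes. The change was at least 2-fold for 745 of the genes that rose and 531 of those that fell. Changes of 8-fold or more were rarer and uneven, with 39 genes higher and 4 lower. HBBP1, a globin pseudogene, was the 1 gene among these 4 that is not a small RNA gene. The median over all tested genes was -0.05. Experiment 2 gave the largest change in 73.0% of the genes that rose and 70.3% of those that fell, small RNA genes aside, and the median ratio of the genes that rose was 1.13, 1.65 and 1.08 in experiments 1, 2 and 3. Without experiment 2, 560 genes rose and 255 fell, among them 517 of the 1036 and 221 of the 835. Without experiment 1 the counts were 1304 and 1114. Fits without experiment 2 or experiment 3 used only the spread shared across genes, and the fit without experiment 1 did not. Their counts, here and in the lists below, are therefore not on equal terms. With the GC trend removed they were 1571 and 1282, and they included 961 of the genes that rose and 687 of those that fell. Comparing the groups over 6 libraries without the experiments as a block gave 300 and 80. Testing all 23159 genes with no filter on low values gave 0 calls by limma, with 3887 genes at an unadjusted p under 0.05 and no other tool run.

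**Figure D2:**
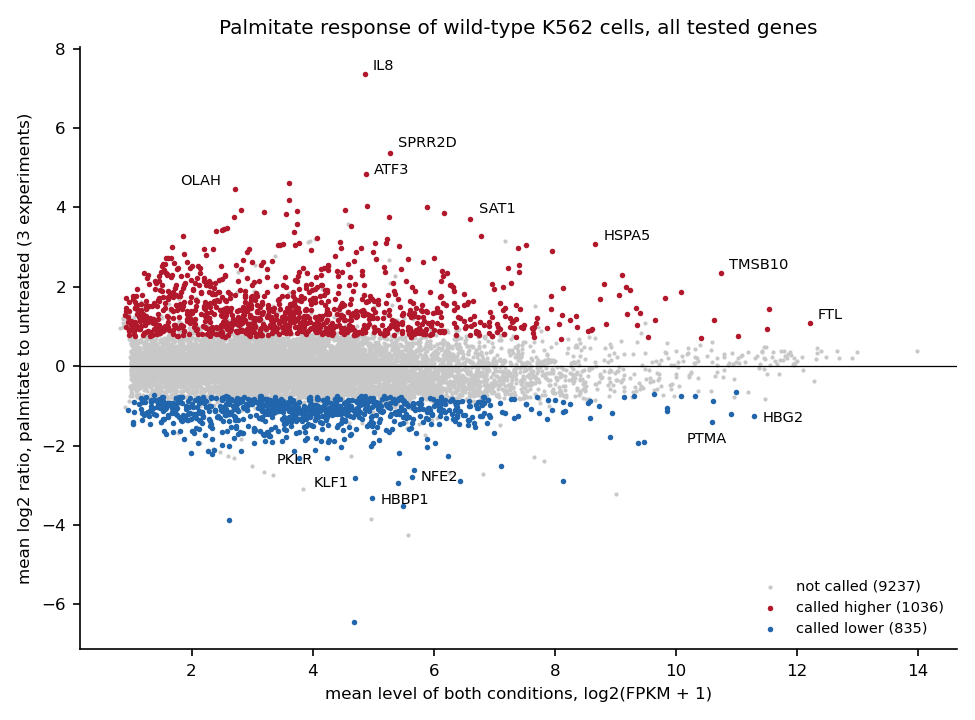
Mean log2 ratio of palmitate to untreated over the 3 experiments (vertical axis) against the mean level in log2(FPKM + 1) (horizontal axis) for the 11108 tested genes, with the 1036 genes that rose and the 835 that fell in colour. IL8 lies highest at 7.35, and most genes lie close to 0.

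The transcription factors and effectors of the integrated stress response rose nearly as a whole. Of 17 tested members 16 rose, none fell, and the median change was 2.39, with experiment medians of 1.77, 3.15 and 2.69. ATF3, a stress-induced repressor of the ATF/CREB family (hg19 chr1:212738675-212794119), was at 5.47, 4.07 and 2.5 FPKM in untreated cells and 67.8, 326 and 118 FPKM with palmitate. Every palmitate library was above every untreated one, and the change was 4.84 ± 0.43 (adjusted p = 0.00112). INHBE, which encodes the activin E subunit, stood at 2.82, 0.884 and 0.849 FPKM in untreated cells and 44.3, 72.6 and 57.1 FPKM with palmitate and rose by 4.61 ± 0.34. GDF15, a secreted stress hormone that acts on appetite through a brainstem receptor, rose by 3.87 ± 0.31, from 17.3, 19.5 and 13 to 160, 543 and 187 FPKM. DDIT3 encodes CHOP, a transcription factor linked to death after prolonged ER stress. Its level was 72.1, 66.8 and 46.1 FPKM in untreated cells and 384, 800 and 426 FPKM with palmitate, a rise of 3.04 ± 0.26. NUPR1, a small nuclear stress protein, rose by 3.44, the pseudokinase gene TRIB3 rose by 2.72, and PPP1R15A, whose product directs a phosphatase to eIF2 alpha, by 2.39. ATF4 itself, which is controlled mainly at translation, changed less in message, from 229, 175 and 122 to 335, 641 and 345 FPKM, a rise of 1.30 ± 0.28. CEBPB, a partner of ATF4, rose by 1.92, whereas its relative CEBPD was at 1.3, 0.728 and 2.37 FPKM in untreated cells and 0.587, 0.545 and 2.53 FPKM with palmitate (change -0.21 ± 0.23, adjusted p = 0.55), with overlapping groups.

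**Figure D3:**
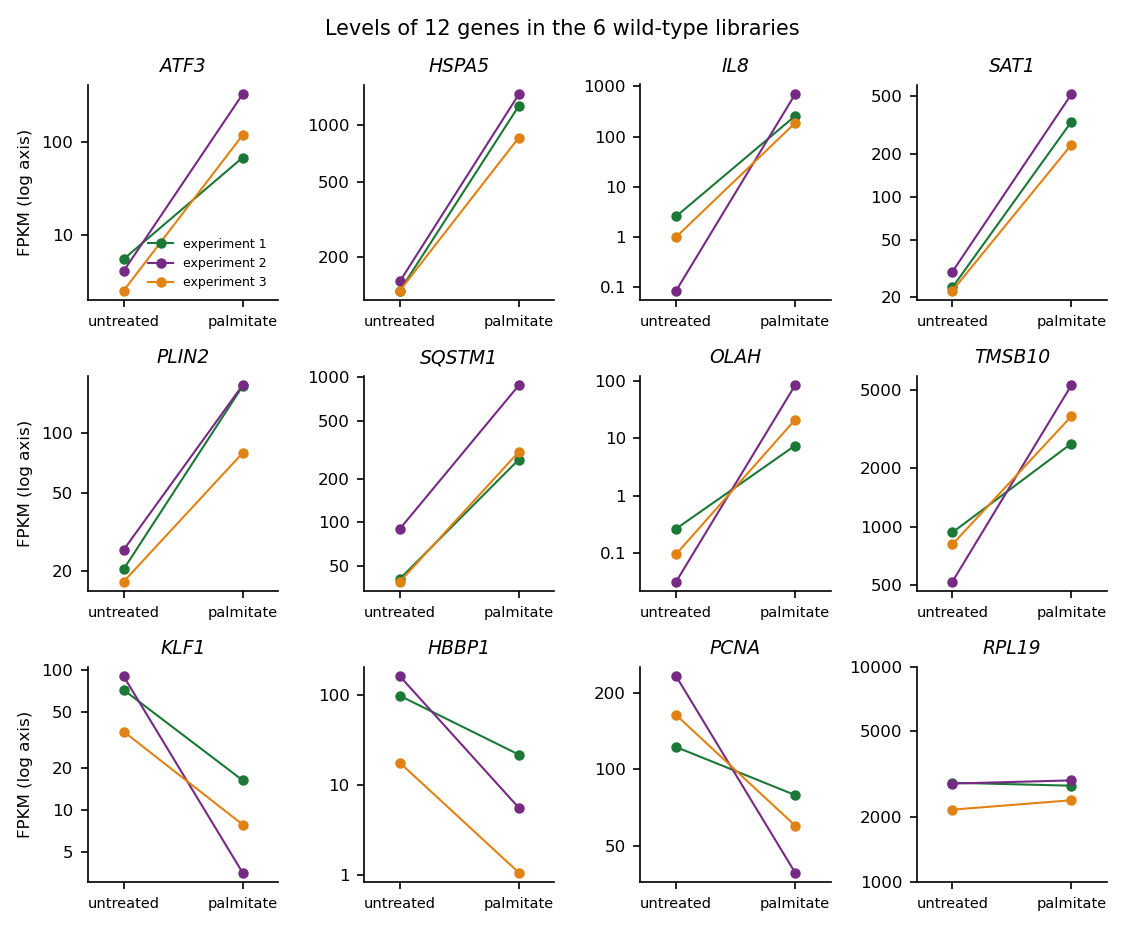
FPKM on a log axis (vertical) of selected genes in the 3 untreated and 3 palmitate libraries, with a line joining the 2 libraries of an experiment and an axis range of its own for each gene. Lines of ATF3 and HSPA5 rise and those of KLF1 fall in all 3 experiments, while RPL19, a ribosomal protein gene with a mean change of 0.05, stays level.

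In the list of serine, one-carbon, asparagine and proline synthesis 8 of 16 tested members rose and 2 fell. PHGDH, the enzyme at the entry of serine synthesis, was at 12.6, 7.29 and 6.27 FPKM in untreated cells and 51.5, 90.6 and 67.2 FPKM with palmitate and rose by 2.88 ± 0.32. ASNS, asparagine synthetase, rose by 2.55 ± 0.22, from 99.3, 60.7 and 49.6 to 489, 447 and 283 FPKM. CTH, which makes cysteine from cystathionine, rose by 2.40, and PSAT1, the next enzyme after PHGDH, by 1.09. The mitochondrial folate enzyme genes ALDH1L2, MTHFD2 and MTHFD1L rose by 2.87, 0.86 and 0.75. SHMT1, a cytosolic folate enzyme gene, was at 11.2, 17.1 and 11.4 FPKM in untreated cells and 4.93, 4.72 and 6.1 FPKM with palmitate. MTHFD1, also cytosolic, was at 83.4, 84 and 60.9 FPKM in untreated cells and 49.1, 28 and 32.4 FPKM with palmitate. SHMT1 fell by 1.17 ± 0.25 and MTHFD1 fell by 1.06 ± 0.24. Mitochondrial SHMT2 had palmitate libraries all above the untreated ones but missed the threshold (change 0.75 ± 0.25, adjusted p = 0.0789). Without experiment 2, 5 members rose and none fell, with no call for SHMT1, MTHFD1, MTHFD2 or MTHFD1L.

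Amino acid transporters and tRNA synthetases moved in part. Of 14 transporters 6 rose and 1 fell. SLC7A11, the cystine carrier that feeds glutathione synthesis, was at 4.56, 1.48 and 2.51 FPKM in untreated cells and 43.5, 26.1 and 22.6 FPKM with palmitate and rose by 3.06 ± 0.23. Its partner chain SLC3A2 rose by 2.37 ± 0.22, from 60.2, 116 and 45.6 to 252, 595 and 304 FPKM. The neutral amino acid carriers SLC38A2 and SLC6A9 rose by 1.61 and 1.50, while SLC38A5, a glutamine carrier, fell by 0.99 ± 0.28. Among 20 cytosolic aminoacyl-tRNA synthetases, which charge tRNAs with amino acids, 7 rose and 1 fell. WARS rose by 2.09 ± 0.27, from 98.9, 69 and 52.7 to 275, 440 and 239 FPKM, and GARS, CARS and SARS by 1.45, 1.43 and 1.23. IARS, TARS and NARS had changes of 0.39, 0.34 and 0.09 and were not called. The median of the synthetases was 0.58 in experiment 1 and 0.15 and 0.04 in experiments 2 and 3. With the GC trend removed 4 of the 16 synthetases with a known GC value rose and 2 fell, and GARS and SARS are among the 4 members that this fit could not test. Leaving out experiment 2 or experiment 3 left 4 synthetases that rose of 20, and also 4 transporters, against 6.

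Promoters of this arm were searched for the C/EBP-ATF element, the composite site at which ATF4 and C/EBP proteins are known to bind, as TGATGNAA on both strands. Windows ran from 250 bases before to 50 bases after the start of transcription, 300 bases in all, from RefSeq on GRCh38.p14, and 8751 of the 10938 tested genes that are not small RNA genes had one. The element was in 4.03% of promoters of genes that rose, 0.924% of those that fell, 1.59% of all tested and 3.67% of all promoters in the RefSeq table. It was in 5 of 12 synthetase promoters (41.7%), in 3 of 13 transporter promoters and in 2 of 10 of the serine and folate list. The matches of ASNS (chr7:97872454-97872491, minus strand) and CARS (chr11:3057403-3057440, minus strand) are shown with their flanks because both genes rose and belong to different steps of amino acid use. Capitals mark the matched bases, written 5′ to 3′ in the direction of transcription.
ASNS: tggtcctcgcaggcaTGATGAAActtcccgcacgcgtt
CARS: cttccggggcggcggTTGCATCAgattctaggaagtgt
The CARS match is the element on the opposite strand. Of the 5 synthetase genes with a match, CARS and AARS rose, and IARS, TARS and NARS were not called. A match describes these letters and not binding.

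Genes of the ER lumen and its folding machinery formed a large block of rises. Of 24 chaperones and folding enzymes 17 rose, none fell, and the median change was 1.20 (1.15, 1.41 and 1.21 by experiment). HSPA5 encodes BiP, the ER Hsp70 that holds unfolded proteins and restrains the stress sensors (hg19 chr9:127997126-128003666). It was at 132, 148 and 132 FPKM in untreated cells and 1259, 1451 and 855 FPKM with palmitate, with no overlap of the groups, and rose by 3.07 ± 0.22 (adjusted p = 0.00057). DNAJB9, a cofactor of BiP, rose by 3.12 ± 0.25, from 6.06, 4.73 and 8.62 to 67.9, 61.5 and 58.3 FPKM. HSP90B1, the ER Hsp90, rose by 1.91 ± 0.22, from 288, 271 and 372 to 1387, 1044 and 1073 FPKM. MANF, a secreted ER cofactor, and ERO1LB, which oxidises protein disulfide isomerase, rose by 2.35 and 1.97. The lectin chaperones CANX and CALR were not called (changes 0.70 ± 0.23 and 0.57 ± 0.20), although their palmitate libraries all lay above the untreated ones. Leaving out experiment 2 left 12 members that rose, and removing the GC trend gave 22.

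Of 12 stress sensors and close regulators 7 rose, and none fell. EIF2AK3, which encodes PERK, was at 3.44, 2.96 and 3.74 FPKM in untreated cells and 13.3, 20.1 and 11.7 FPKM with palmitate, a rise of 1.84 ± 0.26, and ERN1, which encodes IRE1, rose by 1.67 ± 0.22, from 1.83, 1.43 and 0.844 to 6.77, 7.86 and 4.87 FPKM. XBP1 rose by 1.33 ± 0.24, while the ATF6 change was 0.37 ± 0.22 with overlapping groups. FPKM per gene does not separate spliced from unspliced XBP1. SELK, a selenoprotein of the ER membrane, rose by 1.99. In ER-associated degradation, which sends misfolded proteins to the proteasome, 10 of 22 members rose and 1 fell. HERPUD1, a scaffold of this machinery, rose by 3.21 ± 0.26. EDEM1, which marks glycoproteins for disposal, was at 7.81, 5.99 and 6.78 FPKM in untreated cells and 44, 56.8 and 34 FPKM with palmitate and rose by 2.52 ± 0.25. SEL1L, the adaptor of the ubiquitin ligase HRD1, rose by 2.24 ± 0.22. The exception was UBE2G2, a ubiquitin-conjugating enzyme, which fell by 0.85 ± 0.23 and was not called without experiment 2 or without experiment 3.

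Promoters were also searched for the ER stress response element, at which ATF6 and the factor NF-Y are known to bind: CCAAT, any 9 bases, then CCACG, on both strands. It was rare, with 22 of 27305 RefSeq promoters (0.0806%) and 14 of the 8751 tested (0.16%). It was in 8 of 819 promoters of genes that rose (0.977%) and in 0 of 649 of genes that fell. Among ER chaperones and folding enzymes 6 of 21 promoters held it (28.6%), and 18 of these 21 held the CCAAT box alone or within it. The 8 genes that rose were HSPA5, ERO1LB, FICD, HSP90B1, TRIM5, CRELD2, XBP1 and SERP1. Of these, 4 are printed to show how the spacer varies while the ends stay: HSPA5 (chr9:125241376-125241424, minus strand), XBP1 (chr22:28800588-28800636, minus strand), FICD (chr12:108515108-108515156, plus strand) and TRIM5 (chr11:5685100-5685148, minus strand), on GRCh38.p14 with the match in capitals, 5′ to 3′ in the direction of transcription.
HSPA5: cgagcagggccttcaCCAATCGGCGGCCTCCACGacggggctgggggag
XBP1: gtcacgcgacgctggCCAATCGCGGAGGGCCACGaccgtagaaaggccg
FICD: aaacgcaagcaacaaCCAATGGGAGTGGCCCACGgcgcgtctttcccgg
TRIM5: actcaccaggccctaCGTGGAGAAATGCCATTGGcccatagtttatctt
FICD, which adds AMP to BiP and removes it, was at 0.962, 1.37 and 0.686 FPKM in untreated cells and 4.91, 12.6 and 4.17 FPKM with palmitate and rose by 1.91 ± 0.26. TRIM5, best known as a restriction factor against retroviruses and not as an ER gene, carries the element on the opposite strand and rose by 1.61 ± 0.22, from 8.51, 4.6 and 6.19 to 25.9, 19.7 and 18.6 FPKM. CRELD2, an ER protein of the disulfide system, and SERP1, which protects nascent membrane proteins, rose by 1.53 and 0.99.

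Genes that move proteins into and out of the ER rose in part. In the translocon and N-glycosylation list 13 of 28 members rose, none fell, and the median change was 0.73. SSR2, SSR1 and SSR3, subunits of the translocon-associated protein complex, rose by 1.43, 1.23 and 1.21. SSR2 was at 178, 149 and 119 FPKM in untreated cells and 404, 480 and 323 FPKM with palmitate. SEC11C, a signal peptidase subunit, rose by 1.42. Of 28 coat proteins and cargo receptors between ER and Golgi, 15 rose and none fell, with a median of 0.83. SEC24D, which selects cargo in the COPII coat, stood out at 8.23, 6.48 and 5.8 FPKM in untreated cells and 40.5, 75.2 and 46 FPKM with palmitate, a rise of 2.77 ± 0.27. Its coat partner SEC23A rose by 1.58, COPA of the retrograde COPI coat by 1.37, and KDELR3, a receptor that returns escaped ER proteins, by 2.05. Of 17 genes of hexosamine and sugar nucleotide synthesis, which supplies glycosylation, 5 rose. GFPT1, the entry enzyme of the hexosamine pathway, was at 8.95, 7.42 and 9.92 FPKM in untreated cells and 73.3, 56.4 and 45.3 FPKM with palmitate and rose by 2.58 ± 0.25, while PGM3 of the same pathway and UGDH, which makes UDP-glucuronate, rose by 1.89 and 1.67. Without experiment 2 the counts of these 3 lists were 7, 8 and 3. Without experiment 3 the translocon count was also 7.

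**Figure D4:**
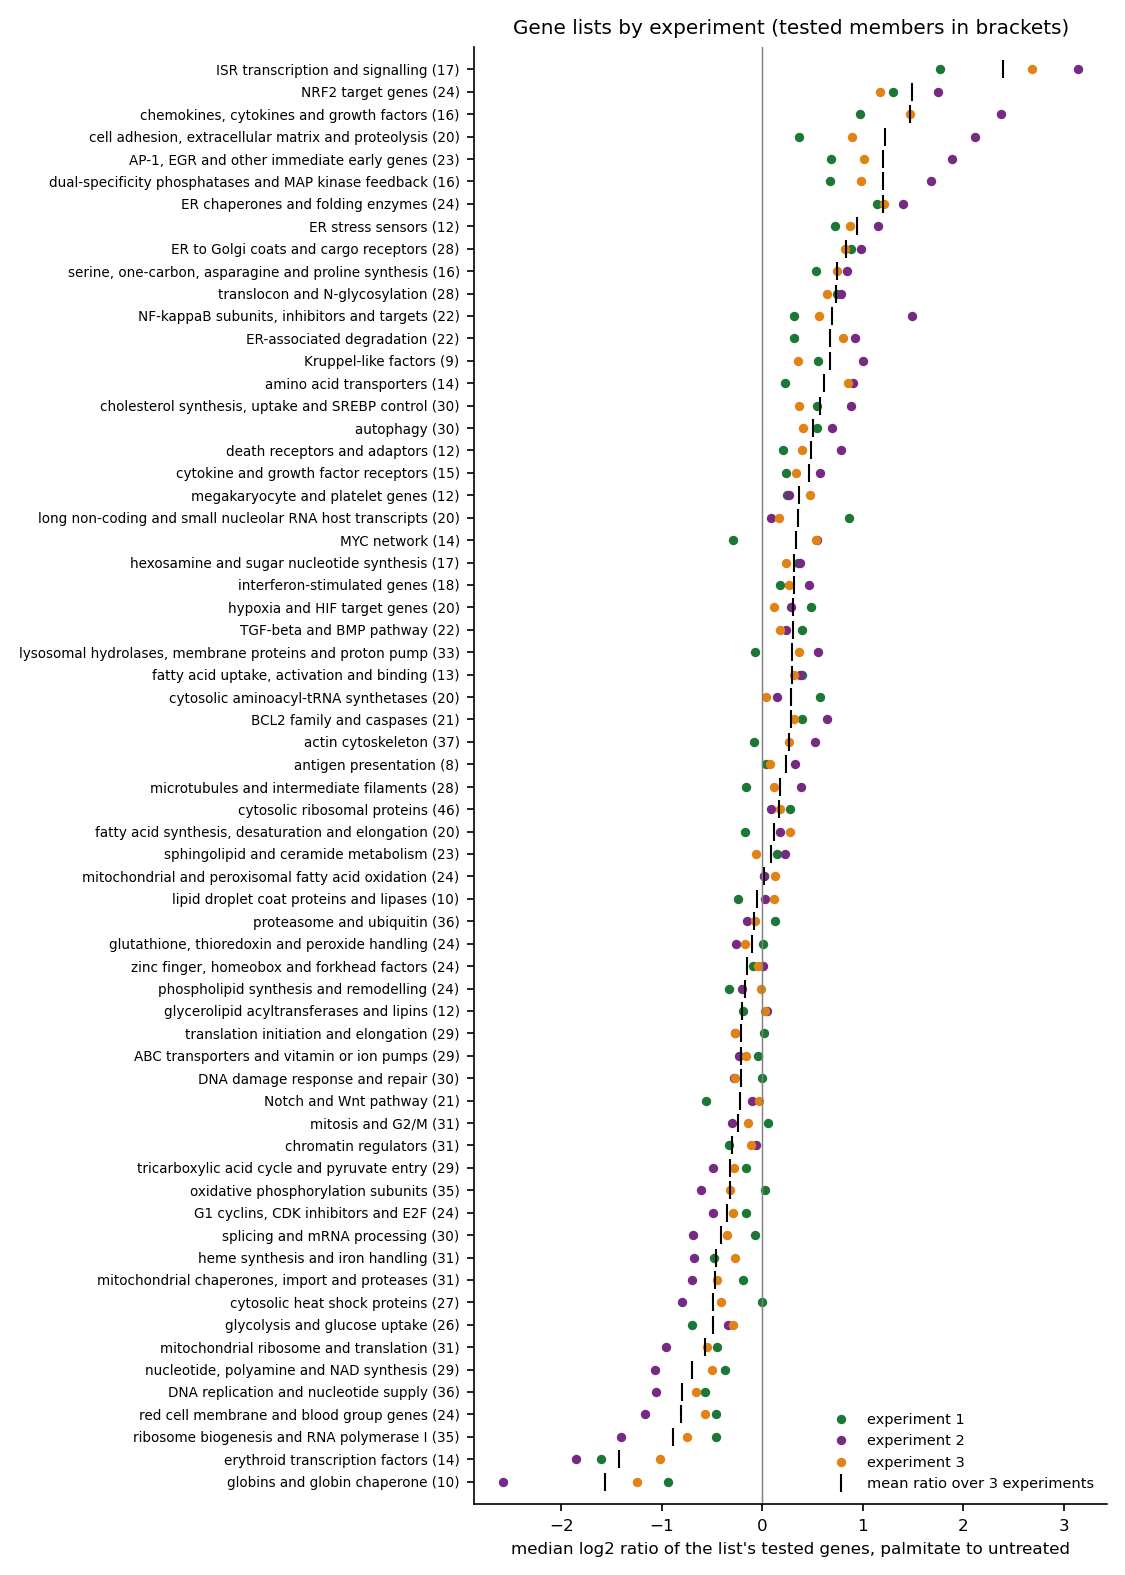
Median log2 ratio of palmitate to untreated (horizontal axis) of the tested members of each gene list (vertical axis), with 1 point per experiment and a black bar for the median of the mean ratios. Points of the integrated stress response lie at 1.77, 3.15 and 2.69, and those of erythroid transcription factors at -1.60, -1.86 and -1.02.

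Over 8 lists of lipid metabolism 156 genes were tested, of which 21 rose (13.5%) and 6 fell (3.85%), beside 9.33% and 7.52% of all genes. PLIN2, the coat protein of lipid droplets, was at 20.5, 25.7 and 17.7 FPKM in untreated cells and 173, 175 and 79.5 FPKM with palmitate and rose by 2.61 ± 0.25 (adjusted p = 0.00138). G0S2, an inhibitor of the triglyceride lipase ATGL, rose by 3.39 ± 0.34, from 4.93, 2.37 and 1.53 to 32, 66 and 25.3 FPKM. The other 8 tested lipid droplet genes were not called, among them HILPDA, another lipase inhibitor, at -0.84 ± 0.25 (adjusted p = 0.0508). Among 12 acyltransferases and lipins 2 rose. AGPAT9, the file's name for the glycerol-3-phosphate acyltransferase now called GPAT3, was at 2.68, 1.6 and 7.53 FPKM in untreated cells and 30.9, 45.6 and 34.2 FPKM with palmitate and rose by 3.11 ± 0.37. LPIN1, which makes diacylglycerol from phosphatidate, rose by 1.03 ± 0.24. AGPAT6, now called GPAT4, was at 13.6, 21 and 13.1 FPKM in untreated cells and 11.8, 20 and 11.9 FPKM with palmitate with a change of -0.13 ± 0.21, and the mitochondrial enzyme gene GPAM had a change of -0.40 ± 0.23. DGAT1, which closes triglyceride synthesis, had a change of -0.61 ± 0.25. Leaving out experiment 2 left 1 gene of this list that rose.

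Genes of fatty acid synthesis and use went both ways. OLAH, a thioesterase that releases medium-chain acids from fatty acid synthase (hg19 chr10:15085894-15115851), was listed at 0.267, 0.0323 and 0.0968 FPKM in untreated cells and at 7.44, 82.8 and 20.9 FPKM with palmitate. This gene was near 0 in every untreated library and rose by 4.46 ± 0.55 (adjusted p = 0.00308). ME1, which supplies NADPH, rose by 1.77 ± 0.27, while SLC25A1, the carrier that exports citrate from mitochondria, fell by 1.10 ± 0.31. FASN and SCD, the synthase and the desaturase that makes palmitoleate from palmitate, were not called (changes -0.67 ± 0.32 and 0.46 ± 0.21). Acyl-CoA synthetase genes ACSL1 and ACSL3 rose by 1.20 and 1.08, whereas the fatty acid binding protein gene FABP5 fell by 1.60 ± 0.29, from 50.9, 60.4 and 74.8 to 28.3, 12.3 and 21.3 FPKM, and the thioesterase gene ACOT7 fell by 0.80 ± 0.23. In fatty acid oxidation 2 of 24 members rose and 1 fell, beside 9.33% and 7.52% of all genes, with a median of 0.02. ACAA2, the last enzyme of the mitochondrial spiral, rose by 1.64 ± 0.22, and PPARD, a nuclear receptor for fatty acids, rose by 1.19 ± 0.33. CPT1A, the gate for entry into mitochondria, was at 16.3, 12.1 and 10.8 FPKM in untreated cells and 19.5, 6.76 and 12.1 FPKM with palmitate with a change of -0.12 ± 0.26 and overlapping groups.

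In phospholipid synthesis and remodelling 1 of 24 rose and 1 fell, and these 2 are consecutive steps of phosphatidylethanolamine synthesis. PCYT2, which makes CDP-ethanolamine, was at 27.7, 34.9 and 19.7 FPKM in untreated cells and 6.17, 13.2 and 13.4 FPKM with palmitate and fell by 1.29 ± 0.30. EPT1, which transfers this head group to diacylglycerol, was at 14.4, 12.5 and 14.7 FPKM in untreated cells and 50.9, 27.2 and 24.6 FPKM with palmitate and rose by 1.18 ± 0.26. LPCAT3, which loads polyunsaturated chains onto phospholipids, had a change of -0.66 ± 0.23 (adjusted p = 0.0858). Of 23 sphingolipid genes 1 rose and 1 fell: SGPL1, which degrades sphingosine-1-phosphate, rose by 1.41 ± 0.23, and SMPD4, a neutral sphingomyelinase, fell by 0.98 ± 0.28. SPTLC1 and CERS2, for sphingoid base and ceramide synthesis, had changes of 0.26 and 0.09. Of 30 genes of cholesterol synthesis, uptake and control 7 rose and none fell, with a median of 0.58. STARD4, a cholesterol carrier, rose by 1.89 ± 0.28, from 13.7, 6.89 and 15.6 to 75.9, 32.5 and 37 FPKM, and the synthesis enzyme genes HSD17B7 and MSMO1 rose by 1.56 and 1.38. NPC1, which exports cholesterol from lysosomes, rose by 1.25. The cholesterol count was 3 without experiment 2 and 13 with the GC trend removed, with which 5 of the 23 phospholipid genes with a known GC value fell.

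Genes known as targets of NRF2, the factor released under oxidative and electrophilic stress, rose in 16 of 24 cases, with a median of 1.49. OSGIN1, an oxidative stress response gene, was at 1.34, 3.3 and 0.945 FPKM in untreated cells and 18, 95 and 30.5 FPKM with palmitate and rose by 3.84 ± 0.30. SQSTM1, which encodes the autophagy receptor p62, rose by 2.97 ± 0.22, from 40.7, 90.1 and 39 to 271, 880 and 306 FPKM. GCLC and GCLM, the subunits of the enzyme that starts glutathione synthesis, rose by 2.00 and 1.69. NQO1, a quinone reductase, rose by 1.58, and TXNRD1, thioredoxin reductase, by 1.53. NFE2L2, which encodes NRF2, rose by 1.34 ± 0.23. HMOX1, heme oxygenase 1 and a classical NRF2 target, did not reach 1 FPKM in any library: it was listed at 0 FPKM in 4 libraries and at 0.0228 and 0.0385 FPKM in experiment 2. In the wider list of glutathione, thioredoxin and peroxide enzymes 2 of 24 rose and 3 fell, beside 9.33% and 7.52% of all genes. GSR, glutathione reductase, rose by 0.81 and GLRX, a glutaredoxin, by 1.03, while CAT, catalase, fell by 0.92 and PRDX2, the abundant red cell peroxiredoxin, fell by 0.84. None of the 5 was called when experiment 2 or experiment 3 was left out. Of 9 metallothionein genes 2 passed the filter on low values, and neither was called.

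Chemokine and cytokine messages held the largest single rise. IL8, a chemokine for neutrophils now called CXCL8 (hg19 chr4:74606222-74609433), was at 2.56, 0.0843 and 0.991 FPKM in untreated cells and 257, 695 and 186 FPKM with palmitate. The groups were far apart, and IL8 rose by 7.35 ± 0.53 (adjusted p = 0.00059), on a scale where the pseudocount damps its low untreated values. Its ratios were 6.18, 9.33 and 6.55, with an SE of their own of 0.99. CXCL3 and CXCL2, chemokines of the same receptor group, rose by 3.94 ± 0.23 and 3.06 ± 0.34. CXCL3 (hg19 chr4:74902311-74904490) was at 4.86, 7.21 and 2.51 FPKM in untreated cells and 117, 109 and 45.8 FPKM with palmitate. Of 16 tested members 11 rose, none fell, and the median was 1.47. The list has 30 members, and those near 0 in untreated cells, such as IL6 and IL1A, passed the filter only through palmitate. The count and the median therefore lean upward. CSF1, the macrophage growth factor, rose by 2.16. Levels of the other cytokines stayed low. IL6 was at 0.526, 0.227 and 0.462 FPKM in untreated cells and 4.33, 6.28 and 3.96 FPKM with palmitate, a rise of 2.04 ± 0.25, and IL1A at 0.111, 0.0868 and 0.119 FPKM in untreated cells and 2.24, 8.92 and 2.13 FPKM with palmitate, a rise of 2.07 ± 0.35. The count of 11 was the same when experiment 2 or experiment 3 was left out, and 10 without experiment 1. Summed monocyte markers were 57.1 to 99.5 FPKM in untreated cells and 54.3 to 173.3 FPKM with palmitate, mostly CD68, and the part of other cells in these rises was not tested.

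NF-kappaB genes, among which feedback inhibitors are textbook targets of the pathway, rose in 8 of 22 cases. IER3, an immediate early survival gene, was at 5.39, 12.1 and 6.09 FPKM in untreated cells and 18.2, 272 and 72.9 FPKM with palmitate and rose by 3.12 ± 0.45. TNFAIP3, which encodes the inhibitor A20, rose by 2.21 ± 0.21, from 2.3, 3.49 and 1.69 to 14.9, 21.4 and 10.2 FPKM. RELB, a subunit of the noncanonical branch, rose by 2.73 ± 0.41 from values near 0, and NFKBIA, the inhibitor of the canonical branch, rose by 1.17 ± 0.34. NFKB1 was not called (change 0.32 ± 0.26). Without experiment 2, 3 of these genes rose. With ratios centred on their medians 5 rose. In the interferon-stimulated list 5 of 18 rose. IFI16, a sensor of DNA, had the largest change of the list, at 1.68, 1.57 and 1.81 FPKM in untreated cells and 24.3, 91.5 and 49.4 FPKM with palmitate, a rise of 4.19 ± 0.35. ISG20, an exonuclease, rose by 2.10 and IRF1 by 1.26. Of the 8 tested antigen presentation genes 2 rose and 2 fell. IFI30, a lysosomal thiol reductase, was at 81.6, 116 and 73.8 FPKM in untreated cells and 25.9, 14.2 and 17.6 FPKM with palmitate and fell by 2.19 ± 0.29, while HLA-E, a class I molecule, rose by 1.04 ± 0.29. Without experiment 2, 2 interferon-stimulated genes rose.

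Immediate early genes, named for their rapid and brief response to growth factors, were higher with palmitate at harvest. Of 23 tested members 15 rose and none fell, with a median of 1.21. JUN, the AP-1 subunit, was at 5.75, 9.1 and 5.1 FPKM in untreated cells and 34.3, 104 and 53.2 FPKM with palmitate and rose by 2.97 ± 0.26. FOS rose by 2.09 ± 0.32, from 0.989, 0.752 and 0.362 to 4.38, 13.3 and 3.73 FPKM, and the partner gene MAFF rose by 2.45. EGR1, a zinc finger factor, varied widely between experiments, at 28.6, 8.17 and 6.41 FPKM in untreated cells and 38.2, 178 and 40 FPKM with palmitate, a rise of 2.39 ± 0.59 with ratios of 0.41, 4.28 and 2.47, whose own SE is 1.12. Of 16 phosphatases and other feedback genes of MAP kinases 9 rose and 1 fell. DUSP5, a nuclear ERK phosphatase, was at 1.19, 1.09 and 1.09 FPKM in untreated cells and 3.17, 47.6 and 8.27 FPKM with palmitate and rose by 2.54 ± 0.56. PHLDA1 rose by 3.48 ± 0.49, from 0.653, 0.397 and 0.419 to 7.86, 52.4 and 8.61 FPKM. DUSP8 and SPRY4 rose by 2.09 and 2.06, and DUSP7 fell by 1.03 ± 0.25. Without experiment 2, 8 immediate early genes rose.

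Krüppel-like factors moved in opposite directions. KLF6, a broadly expressed stress-responsive member, was at 8.3, 5.37 and 4.52 FPKM in untreated cells and 108, 202 and 63.6 FPKM with palmitate and rose by 4.03 ± 0.32. KLF10 and KLF5 rose by 1.77 and 1.18, while KLF1, the erythroid member described further on, fell. In the TGF-beta and BMP list 5 of 22 rose and 2 fell. ID1, a BMP target that blocks differentiation factors, was at 42.2, 44 and 42.6 FPKM in untreated cells and 12.6, 8.81 and 16.7 FPKM with palmitate and fell by 1.72 ± 0.25. ACVR1, a BMP receptor, and TGIF1, a repressor of SMAD proteins, rose by 1.55 and 1.28. Among 24 tested zinc finger, homeobox and forkhead factors of other families 2 rose and 3 fell, beside 9.33% and 7.52% of all genes. BHLHE40, a repressor of the clock, rose by 1.54 ± 0.39, and HOXB4, a factor of blood stem cells, fell by 1.10 ± 0.32. In the Notch and Wnt list the repressor gene HEY1 rose by 3.08 ± 0.27, from 2.11, 3.74 and 2.16 to 18.2, 62.5 and 21.9 FPKM, while JAG2, a Notch ligand, HES6 and the Wnt receptor gene FZD1 fell by 1.38, 1.08 and 0.99. Among 20 hypoxia genes 4 rose and 2 fell: VEGFA, the vascular growth factor, rose by 2.14 ± 0.25, EPAS1, which encodes HIF-2 alpha, by 2.25 ± 0.31, NDRG1 by 2.95 ± 0.61 and P4HA2 by 1.68 ± 0.31. Of 15 receptors 4 rose and 1 fell. IL20RB, a chain of the receptors for interleukin-20 family cytokines, was at 1.8, 1.45 and 0.83 FPKM in untreated cells and 26.7, 52.2 and 26.1 FPKM with palmitate and rose by 3.88 ± 0.27, while EPOR, the erythropoietin receptor, fell by 1.38 ± 0.26. Without experiment 2, IL20RB was the 1 receptor that rose, and 2 Krüppel-like and 3 TGF-beta genes rose.

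Genes of red cell identity fell. Of 14 tested erythroid transcription factors 10 fell and none rose, with a median of -1.42 (-1.60, -1.86 and -1.02 by experiment). KLF1, the activator of adult globin and many red cell genes (hg19 chr19:12995236-12998017), was at 71.8, 89.8 and 36.2 FPKM in untreated cells and 16.2, 3.54 and 7.83 FPKM with palmitate. All palmitate libraries lay below all untreated ones, and KLF1 fell by 2.83 ± 0.42 (adjusted p = 0.00588). NFE2, a partner at globin enhancers, fell by 2.78 ± 0.41, from 151, 130 and 81.1 to 31.6, 6.04 and 21 FPKM. GATA1, the master factor of the lineage, was at 119, 153 and 70.4 FPKM in untreated cells and 39.9, 40.8 and 36.4 FPKM with palmitate and fell by 1.46 ± 0.25. LDB1, which joins these factors into a complex, and GFI1B, a repressor of the lineage, fell by 2.00 and 1.90. MYB, a proliferation factor of progenitors, fell by 1.65 ± 0.34. TAL1, another member of the same complex, was at 30.2, 33 and 22.3 FPKM in untreated cells and 28.6, 24.5 and 20.1 FPKM with palmitate with a change of -0.21 ± 0.22 and overlapping groups. Without experiment 2, 8 members fell. In these bulk samples fewer cells of a type and less RNA per cell cannot be told apart.

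Globin genes fell in 9 of 10 cases, with a median of -1.56, and their levels differed widely between experiments. For 3 of the 10 all palmitate libraries lay below the untreated ones, beside 14.4% of all genes. The fetal genes HBG1 and HBG2 were the most abundant of those that fell, at 2428, 4714 and 4469 FPKM for HBG2 in untreated cells and 1340, 1234 and 2298 FPKM with palmitate. HBG2 fell by 1.25 ± 0.24 and HBG1 fell by 1.20 ± 0.27. The embryonic gene HBZ was at 2260, 1446 and 304 FPKM in untreated cells and 638, 190 and 145 FPKM with palmitate and fell by 1.94 ± 0.33. HBBP1 (hg19 chr11:5263184-5264822) fell by 3.32 ± 0.42, from 99, 163 and 17.8 to 21.9, 5.6 and 1.06 FPKM, lower in each experiment while the groups overlapped. AHSP, the chaperone of free alpha globin, fell by 2.04. HBE1 was the exception (change -0.83 ± 0.27, adjusted p = 0.0706). HBG1 and HBG2, like HBA1 and HBA2, are near-identical copies, so the split of fragments within each pair is uncertain. With the GC trend removed, and also without experiment 2, 6 globin list members fell.

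Heme, iron and red cell membrane genes fell in part. In heme synthesis and iron handling 10 of 31 fell and 2 rose. TFR2, a transferrin receptor of the erythroid lineage, was at 48.1, 36.1 and 17.4 FPKM in untreated cells and 9.44, 4.35 and 6.27 FPKM with palmitate and fell by 2.12 ± 0.30. STEAP3, an endosomal iron reductase, and the iron exporter gene SLC40A1 fell by 1.71 and 1.69. ALAS2, which starts heme synthesis in erythroid cells, was at 42.2, 55.6 and 9.47 FPKM in untreated cells and 18.6, 22.1 and 6.15 FPKM with palmitate and fell by 0.99 ± 0.24, with overlapping groups. The 2 rises were the ferritin chains: FTH1 was at 1737, 2300 and 1172 FPKM in untreated cells and 2896, 8314 and 3886 FPKM with palmitate and FTL at 2464, 4074 and 2857 FPKM in untreated cells and 4014, 11000 and 6379 FPKM with palmitate, rises of 1.44 ± 0.24 and 1.10 ± 0.19, with overlapping groups for FTL. TFRC, the general transferrin receptor, was not called (change 0.09 ± 0.26). Of 24 membrane and blood group genes 11 fell and 1 rose. The cytoskeletal genes ADD2 and SPTB fell by 1.88 ± 0.22 and 1.68 ± 0.23, SPTB from 14.9, 14 and 7.44 to 3.45, 3.18 and 2.33 FPKM. CD44, an adhesion receptor, was the 1 that rose, by 2.17 ± 0.41, from 1.54, 0.232 and 0.629 to 5.46, 13.9 and 3.78 FPKM. Without experiment 2, 2 heme and iron genes and 5 membrane genes fell. Megakaryocyte and platelet genes went both ways. ITGB3, the beta chain of the fibrinogen receptor, rose by 2.34 ± 0.38, from 0.59, 1.13 and 0.25 to 3.72, 24.9 and 3.46 FPKM, and SRGN, a granule proteoglycan, rose by 1.78, while TUBB1, a platelet tubulin, fell by 1.74 ± 0.28.

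**Figure D5:**
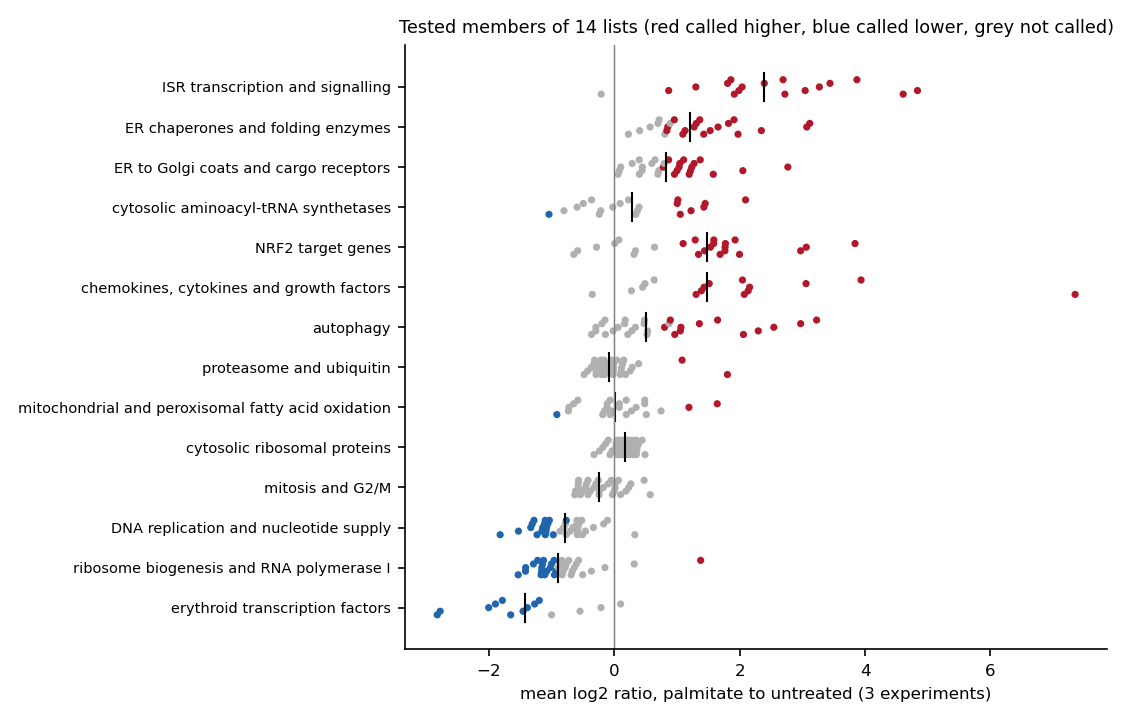
Mean log2 ratio of palmitate to untreated (horizontal axis) of each tested member of selected gene lists (vertical axis), with members that rose or fell in colour. Members of the integrated stress response and ER chaperones lie right of 0 almost throughout, and those of the replication and ribosome biogenesis lists lie mostly left of 0.

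Of 36 replication and nucleotide supply genes 17 fell and none rose, with a median of -0.79, and 25 had palmitate libraries all below the untreated ones. PCNA, the sliding clamp, was at 122, 232 and 164 FPKM in untreated cells and 79.2, 39.2 and 60.1 FPKM with palmitate and fell by 1.53 ± 0.34. UNG, which removes uracil from DNA, fell by 1.82 ± 0.37, and MCM2 and MCM4 of the replicative helicase fell by 1.33 and 1.31. RRM2, a ribonucleotide reductase subunit, fell by 1.04 ± 0.28. Without experiment 2, 2 replication genes were called. The E2F site TTTCGCGC, searched on both strands, was in 5 of 32 replication promoters (15.6%), against 0.122% of promoters of genes that rose, 2.0% of those that fell and 1.21% of all tested. Its other form TTTGGCGC was in 6 of the 32 (18.8%) and in 1.17% of all tested. Of 31 mitosis genes 0 were called by limma with all 3 experiments, and the median was -0.24. TOP2A and CCNB1 had changes of -0.57 ± 0.28 and -0.29 ± 0.25, with overlapping groups. Whether the replication and mitosis lists differed from each other was not tested. CDKN1A, which encodes the CDK inhibitor p21, was at 2.02, 1.99 and 1.38 FPKM in untreated cells and 15.7, 146 and 28.5 FPKM with palmitate and rose by 3.91 ± 0.50, in a line known to lack functional p53. CCNG2, a cyclin of arrested cells, rose by 1.75 ± 0.22, and CCNE1, cyclin E1, was at 16, 26.4 and 14.4 FPKM in untreated cells and 7.12, 3.8 and 6.06 FPKM with palmitate and fell by 1.57 ± 0.31. MYC was at 123, 98.3 and 84.6 FPKM in untreated cells and 92.7, 131 and 85.9 FPKM with palmitate with a change of 0.01 ± 0.24, while MXD1, an antagonist of MYC, rose by 1.87 ± 0.29. Among 30 DNA damage genes 2 rose and 4 fell, beside 9.33% and 7.52% of all genes. GADD45A and GADD45B rose by 1.56 and 1.75, and PARP1 fell by 1.25 ± 0.26.

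Genes of factors that build ribosomes fell in many cases, and none of the ribosomal protein genes passed the test. Of 35 ribosome biogenesis and RNA polymerase I genes 17 fell and 1 rose, with a median of -0.89 (-0.46, -1.41 and -0.75 by experiment). RRP9 and BOP1, which process ribosomal RNA, fell by 1.53 ± 0.30 and 1.42 ± 0.29, RRP9 from 24.4, 57.8 and 22.4 to 4.73, 16.3 and 13.5 FPKM. POLR1A, the largest subunit of RNA polymerase I, fell by 1.17 ± 0.24, and NCL, nucleolin, was at 535, 640 and 565 FPKM in untreated cells and 443, 183 and 295 FPKM with palmitate and fell by 1.00 ± 0.29. TAF1D, a subunit of the polymerase I selectivity factor whose gene also hosts small nucleolar RNAs, rose by 1.38 ± 0.22. Without experiment 2, 3 members fell. Of 46 cytosolic ribosomal protein genes 0 were called by limma, and their median was 0.16. RPL12 had the largest mean change in this list at 0.49 ± 0.17. In translation factors 1 of 29 rose and 4 fell: EIF1, which guards start codon choice, rose by 1.17 ± 0.19, and EIF2B1, a subunit of the exchange factor that eIF2 alpha phosphorylation inhibits, fell by 0.96 ± 0.22. In splicing 1 of 30 rose and 2 fell, beside 9.33% and 7.52% of all genes, and CLK1, a splicing kinase, rose by 1.36 ± 0.25. UHRF1, which guides maintenance of DNA methylation, was at 30.5, 47.4 and 35.5 FPKM in untreated cells and 10.8, 5.47 and 13.2 FPKM with palmitate and fell by 1.89 ± 0.33, while the histone demethylase gene KDM6B rose by 1.64 ± 0.33. GAS5, a host of small nucleolar RNAs, was at 816, 587 and 319 FPKM in untreated cells and 2854, 1743 and 1536 FPKM with palmitate and rose by 1.88 ± 0.21, and NEAT1, the RNA of paraspeckles, rose by 1.07 ± 0.28. MIR17HG, the host of the miR-17 cluster, and SNHG4 fell by 1.45 and 1.41.

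Nuclear genes of the mitochondrial translation apparatus fell in part. Of 31 mitochondrial ribosome and translation genes 11 fell and none rose, with a median of -0.57. MRPS34 was at 58.2, 157 and 75.9 FPKM in untreated cells and 21.9, 42.9 and 43.3 FPKM with palmitate and fell by 1.34 ± 0.26, and TUFM, the mitochondrial elongation factor, fell by 0.93 ± 0.22. Of 35 respiratory chain and ATP synthase subunits 1 fell, ATP5B, by 0.71 ± 0.20, and the median was -0.33. The difference between these lists was not tested. Of 31 chaperone, import and protease genes 6 fell, led by HSPE1, the cofactor of mitochondrial Hsp60, which was at 504, 468 and 722 FPKM in untreated cells and 385, 94.1 and 303 FPKM with palmitate and fell by 1.31 ± 0.33. LONP1 and HSPA9, known for roles in mitochondrial stress, had changes of 0.56 ± 0.24 and 0.47 ± 0.20 and were not called. In the tricarboxylic acid cycle list SLC25A10, the dicarboxylate carrier, was at 26.6, 42.1 and 12.3 FPKM in untreated cells and 2.92, 5.78 and 6.11 FPKM with palmitate and fell by 2.13 ± 0.37, whereas cytosolic IDH1, a source of NADPH, rose by 1.55 ± 0.24, from 44, 32.8 and 49.1 to 160, 113 and 104 FPKM. Without experiment 2, 0 mitochondrial ribosome genes and 2 chaperone and import genes fell, and without experiment 3, 4 mitochondrial ribosome genes fell.

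Genes of glycolysis and of nucleotide, polyamine and NAD synthesis fell in part. Of 26 glycolysis genes 6 fell and 1 rose. PKLR, the pyruvate kinase of liver and red cells, was at 55, 54.6 and 14.8 FPKM in untreated cells and 11.7, 7.38 and 2.88 FPKM with palmitate and fell by 2.30 ± 0.24. LDHA, lactate dehydrogenase, fell by 1.17 ± 0.25, from 727, 748 and 678 to 445, 216 and 338 FPKM, and PFKFB4 fell by 1.28 ± 0.23. GAPDH, often used as a reference gene, was at 2719, 3298 and 1709 FPKM in untreated cells and 1528, 1975 and 1341 FPKM with palmitate and fell by 0.64 ± 0.19, with overlapping groups and no call with the GC trend removed or with any 1 experiment left out. In nucleotide, polyamine and NAD synthesis 11 of 29 fell and 2 rose. SAT1, which acetylates spermidine and spermine for export or breakdown (hg19 chrX:23801274-23804327), was at 23.4, 30.1 and 22.3 FPKM in untreated cells and 333, 517 and 230 FPKM with palmitate and rose by 3.71 ± 0.23 (adjusted p = 0.00046). ODC1, which makes putrescine, was at 302, 609 and 373 FPKM in untreated cells and 184, 173 and 191 FPKM with palmitate and fell by 1.16 ± 0.26, and SRM, spermidine synthase, fell by 1.47 ± 0.30. NAMPT, the entry enzyme of NAD salvage, rose by 1.95 ± 0.24, and DHODH, a mitochondrial step of pyrimidine synthesis, fell by 1.50 ± 0.26. Without experiment 2, 2 glycolysis genes and 2 of the nucleotide, polyamine and NAD list fell.

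Protein quality control genes beyond the ER lists above moved gene by gene. Of 27 genes in the list of cytosolic heat shock proteins 4 rose and 1 fell, with a median of -0.49. The largest rise in it was that of HSPA13, which is located at microsomes and so is not a cytosolic member. HSPA13 was at 11.2, 9.43 and 14 FPKM in untreated cells and 69.6, 41.3 and 46.5 FPKM with palmitate and rose by 2.07 ± 0.25. DNAJB4 rose by 1.55 ± 0.33. HSPA8, the constitutive Hsp70, fell by 0.75 ± 0.21, from 1403, 2135 and 1449 to 1047, 940 and 922 FPKM. HSPA1A and DNAJB1, classical heat shock genes, had changes of -0.53 ± 0.26 and -0.35 ± 0.22 and were not called. NFE2L1, the factor that drives proteasome genes, was at 32.6, 39.2 and 32.8 FPKM in untreated cells and 53.3, 102 and 76.6 FPKM with palmitate and rose by 1.08 ± 0.23. Of 36 proteasome and ubiquitin genes tested, 34 were not called.

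Autophagy genes rose in 12 of 30 cases and none fell. WIPI1, which binds phosphoinositides on forming autophagosomes, was at 5.09, 4.24 and 3.37 FPKM in untreated cells and 31.3, 91.5 and 37.4 FPKM with palmitate and rose by 3.23 ± 0.33. The Atg8 family genes GABARAPL1 and MAP1LC3B rose by 2.30 ± 0.24 and 2.06 ± 0.25, and OPTN, a receptor for ubiquitinated cargo, by 2.55 ± 0.31. Of 33 lysosomal genes 7 rose and 1 fell. CTSL1, the protease cathepsin L, was at 59.8, 119 and 55 FPKM in untreated cells and 228, 1684 and 430 FPKM with palmitate and rose by 2.89 ± 0.34, NEU1, a sialidase, rose by 1.74 ± 0.25, and CTSZ, another cathepsin, fell by 1.16 ± 0.25. TFE3, a factor of the family that controls lysosome genes, rose by 1.65 ± 0.28. Without experiment 2, 2 lysosomal genes rose, without experiment 3, 4 rose, and with the GC trend removed 12 of 32 rose.

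Cell death genes went both ways. TNFRSF10B, which encodes the death receptor DR5, was at 8.27, 10.2 and 6.13 FPKM in untreated cells and 46.5, 153 and 47.7 FPKM with palmitate. The groups did not overlap, and the gene rose by 2.97 ± 0.30 (adjusted p = 0.00148). BBC3 and PMAIP1, which encode the BH3-only proteins PUMA and NOXA, rose by 2.37 ± 0.27 and 2.27 ± 0.24, PMAIP1 from 8.53, 5.39 and 12.4 to 59.4, 30.5 and 47.2 FPKM. MCL1, the survival protein that NOXA binds, rose by 1.24 ± 0.27, and BCL2L11, which encodes BIM, was at 8.57, 8.95 and 7.15 FPKM in untreated cells and 4.15, 2.23 and 3.25 FPKM with palmitate and fell by 1.15 ± 0.24. BAX, a pore-forming member, had a change of -0.18 ± 0.26 and was not called. Of 21 BCL2 family and caspase genes 5 rose and 3 fell, and without experiment 2 none of them fell. Of 12 death receptor genes 3 rose.

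TMSB10, which binds actin monomers, was at 933, 522 and 811 FPKM in untreated cells and 2664, 5304 and 3678 FPKM with palmitate and rose by 2.35 ± 0.31. TPM4, a tropomyosin, rose by 2.16 ± 0.30 and RHOB, a small GTPase, by 2.28 ± 0.21, while ARHGAP22, which inactivates Rac, fell by 2.19 ± 0.26, from 7.4, 8.64 and 6.21 to 1.14, 0.403 and 1.07 FPKM. RAC1 itself had a change of 0.08 ± 0.21. VIM, vimentin, was at 208, 314 and 253 FPKM in untreated cells and 458, 2507 and 920 FPKM with palmitate and rose by 1.99 ± 0.33. Tubulin genes went both ways: TUBA1A and TUBB2A rose by 2.46 ± 0.50 and 1.40 ± 0.31, both with overlapping groups, and TUBB, the most abundant beta form, was at 1538, 1730 and 866 FPKM in untreated cells and 478, 817 and 555 FPKM with palmitate and fell by 1.14 ± 0.24. Tubulin genes are similar in sequence, so fragments may be shared among them. NEFH, a neurofilament chain, fell by 2.14 ± 0.31. Of 20 adhesion, matrix and proteolysis genes 8 rose and 1 fell, and TIMP1, an inhibitor of matrix proteases, rose by 2.08 ± 0.34, from 219, 240 and 125 to 491, 2105 and 484 FPKM. Among pumps and channels ABCB1, the drug exporter P-glycoprotein, rose by 2.57 ± 0.26 from values near 0 (0.314, 0.0524 and 0.13 FPKM) to 5.6, 8.8 and 4.05 FPKM, and KCNH2, a potassium channel, was at 222, 206 and 81.7 FPKM in untreated cells and 34.9, 24.4 and 37.1 FPKM with palmitate and fell by 2.26 ± 0.35. Without experiment 2, 4 genes of the actin list and 3 microtubule and filament genes rose.

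Several of the steepest changes lay outside the pathways above. SPRR2D, a cornified envelope protein of skin (hg19 chr1:153012200-153013594), was at 8.35, 4.2 and 1.42 FPKM in untreated cells and 125, 555 and 116 FPKM with palmitate and rose by 5.36 ± 0.48 (adjusted p = 0.00112). Its family has similar copies, so its fragments may be shared. SH3BGR, of a family of small proteins with a thioredoxin-like fold, rose by 4.00 ± 0.28, from 11, 13.4 and 15.4 to 157, 387 and 188 FPKM. BEX2 and S100P moved by nearly the same amount in each experiment: the ratios were 3.55, 4.17 and 3.57 for BEX2 and 3.10, 2.95 and 3.07 for S100P, a calcium-binding protein, and the rises were 3.77 ± 0.24 and 3.04 ± 0.21. For S100P the SE of its own ratios is 0.05. CD69, an early activation antigen of leukocytes, rose by 3.54 ± 0.46, and PAEP, a lipocalin of the endometrium, rose by 3.57 ± 0.82, with values of 2.46, 1 and 0.784 FPKM in untreated cells and 6.6, 199 and 12.7 FPKM with palmitate. The PAEP ratios were 1.14, 6.64 and 2.94, with an SE of their own of 1.62. Without experiment 2 the change of PAEP was 2.04. Among genes outside the lists, small RNA genes aside and with a mean of at least 5 FPKM in the higher group, the largest fall was that of FAM178B, at 248, 45.8 and 49.9 FPKM in untreated cells and 32.1, 2.84 and 9.32 FPKM with palmitate, which fell by 2.94 ± 0.28. HEMGN, a nuclear protein of blood progenitors, fell by 2.62 ± 0.40, NME4, a mitochondrial nucleoside diphosphate kinase, fell by 2.04 ± 0.31, and FGFR3, a growth factor receptor, fell by 2.10 ± 0.27. MARCKSL1, which binds actin and membranes, was at 111, 171 and 100 FPKM in untreated cells and 28.2, 32.3 and 34.3 FPKM with palmitate and fell by 1.94 ± 0.24.

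On the linear scale, among genes that changed, the largest gains were in abundant genes. Mean FPKM rose by 3998 for FTL, 3296 for FTH1, 3127 for TMSB10, 2073 for TMSB4X, an actin monomer binder, 1470 for GAS5 and 1333 for CLIC1, an intracellular chloride channel protein. The largest losses in mean FPKM were in HBG2, HBG1 and PTMA, a nuclear acidic protein, at -2247, -1458 and -1258. Genes below 1 FPKM in every untreated library and at 5 FPKM or more in every palmitate library included OLAH, PHLDA1, C12orf39 and SERPINC1. Their higher level with palmitate follows from this selection, and each was also called. C12orf39, a neuropeptide gene now called SPX, was listed at 0 in 2 untreated libraries and at 7.13, 19.8 and 6.05 FPKM with palmitate. SERPINC1, which encodes antithrombin, rose by 2.48 ± 0.28. No gene met the reverse condition.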

How the data were processed

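RNA of wild-type K562 cells was pooled from biological triplicates before library preparation, per the series' design text. Mapping to hg19 used TopHat2 and quantification used Cuffdiff, per the submitters' processing notes, with versions not given in the sources used here. The deposited values are FPKM per gene, which the authors scaled with Cuffdiff among the libraries of a table. Each experiment has a table of its own, so ratios were formed within tables. Depth is unknown because no read counts are given. The p-values set the mean change against the spread between experiments and not between cultures, since separate cultures are not stated. Symbols turned into dates (26 per table), 5 garbled symbols, estimates marked failed or capped (2, 2 and 6) and inconsistent listings (relative difference over 0.01: 2, 0 and 9) were removed. Columns of 2 libraries match no label and were not used.

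The 3 log2(FPKM + 1) ratios were tested against 0, two-sided, in R 4.3.3 with limma 3.58.1 (eBayes, trend on intensity), whose moderated SEs are printed. A call needs a Benjamini-Hochberg value under 0.05 among all genes whose 6 libraries average 1 FPKM or more, 170 of them small RNA or SNAR genes. Pairing by experiment comes from the labels. With group means removed, libraries of the same experiment correlated at 0.456, 0.628 and 0.695 and those of different experiments at -0.525 to 0.011. Removing means of 3 libraries makes positive values within experiments force negative ones between them, so these ranges are not independent. The code was tested on simulated data. Other settings were a pseudocount of 0.1, no filter on low values, a 5 FPKM filter, centred ratios, no replicate block, no intensity trend, no small RNA or SNAR genes, a GC trend removed by lowess (window 0.3, GC known for 95.96% of genes) and each experiment left out. List counts under these settings were added after seeing the data.

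The comparison, gene lists and motifs were chosen with earlier results of these data known. Named are the 4 list members with the largest change, the 10 largest rises and falls outside the lists, the 6 largest gains and losses in FPKM, genes going from below 1 to 5 FPKM or more, the most abundant genes with all ratios within 0.2 of 0, and the genes with the most variable ratios. Further list members were named after their values were seen.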

Additional observations from a re-analysis of the deposited data

How the results depend on the processing

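The counts of genes that rose (1036) and fell (835) stayed within 1.5 times with a pseudocount of 0.1, a mean of at least 5 FPKM, centred ratios, no intensity trend and small RNA and SNAR genes left out. Without a filter on low values they were 0 and 0, without the replicate block 300 and 80, and with the GC trend removed 1571 and 1282. Leaving out 1 experiment gave 560 to 1304 that rose and 255 to 1114 that fell, lowest without experiment 2 and highest without experiment 1. The causes were not tested. Of 65 list medians, 4 reversed under 1 setting each: acyltransferases and lipins to 0.006102 without experiment 1 (-0.2328 to 0.006102 over the experiments left out), metallothioneins to 0.007918 without the filter, interferon-stimulated genes to -0.06873 at 5 FPKM, and zinc finger, homeobox and forkhead factors to 0.01804 with the GC trend removed.

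None of the 282 genes named in the text switched direction in a setting if called in the main fit or in that setting. Of those called in neither, 3 switched with the GC trend removed, 5 without experiment 1, 4 without experiment 2 and 2 without experiment 3. Of the 241 that changed, 126 lost the call without the replicate block, 7 with the GC trend removed (GAPDH, HBA1, HBA2, HES6, HOXB4, KLF5 and PRDX2), 13 without experiment 1, 18 without experiment 3 and 53 without experiment 2. The 53 are AARS, ACOT7, ACSL3, ALAS2, ATP5B, BCL2L11, BHLHE40, CAT, CCNE1, CTSZ, DUSP7, EIF2B1, FZD1, GAPDH, GLRX, GSR, HBA1, HBG1, HES6, HLA-E, HOXB4, HSPA8, HSPE1, IRF1, LDHA, LPIN1, MCL1, MCM4, MIR17HG, MRPS34, MTHFD1, MTHFD1L, MTHFD2, NCL, NFE2L1, NFKBIA, NPC1, ODC1, PARP1, PCNA, POLR1A, PPARD, PRDX2, RRM2, SHMT1, SLC38A5, SLC40A1, SMPD4, SNHG4, TGIF1, TUBB2A, TUFM and UBE2G2. MSMO1, PCYT2, SLC25A1, SRM and TUBA1A lost it without experiment 1 and not without experiment 2 or 3. Leaving out 1 experiment leaves 1 residual degree of freedom. Without experiment 2 or experiment 3 limma's prior degrees of freedom were infinite. The shared spread of genes of like level then fully replaced each gene's own spread, so calls followed the size of the change. Without experiment 1 the prior had 4.07 degrees of freedom, so these fits do not call genes on equal terms. Read depth being unknown, no detection limit can be given for genes listed at 0.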

Other observations

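Some regulatory windows were shared by divergent gene pairs. The ER stress response element of CRELD2 lies at chr22:49918539-49918587 (GRCh38.p14) and is also in the promoter window of its neighbour ALG12, on the opposite strand. CRELD2 rose by 1.53 ± 0.23, and ALG12, a mannosyltransferase of N-glycan synthesis, was at 4.58, 5.72 and 3.18 FPKM in untreated cells and 2.67, 6.61 and 4.83 FPKM with palmitate with a change of 0.02 ± 0.26 and overlapping groups. The element of SERP1 at chr3:150546695-150546743 is shared in the same way with EIF2A. SERP1 rose by 0.99 ± 0.22, while EIF2A had palmitate libraries all above the untreated ones and a change of 0.68 ± 0.22 (adjusted p = 0.0649 in limma). The differences within the pairs were not tested.

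Among the other motifs searched on both strands, the AP-1 site TGANTCA was in 7.33% of promoters of genes that rose, 3.24% of those that fell, 4.17% of all tested and 7.76% of all RefSeq promoters. The core of the antioxidant response element, TGACNNNGC, was in 17.2% of promoters of genes that rose, 14.6% of those that fell and 15.5% of all tested, and in 6 of 22 promoters of NRF2 target genes. The kappaB site GGGNNTTCC was in 7.81%, 6.78% and 8.14%, the cyclic AMP response element TGACGTCA in 4.15%, 2.93% and 3.73%, and the GATA site AGATAA in 6.72%, 4.47% and 4.8% of the same promoter groups. An AP-1 site can overlap the antioxidant core. These shares are descriptions of 300-base windows.

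Of the 11108 tested genes 350 stayed within 0.2 log2 units of 0 in all 3 experiments. RPS28, RPL7A and RPL19, ribosomal proteins, EEF1G, an elongation factor subunit, EIF3H, an initiation factor subunit, and NOP10, of the small nucleolar particles that modify RNA, were the most abundant of these in untreated cells, with changes of 0.09, -0.03, 0.05, 0.11, 0.15 and -0.05. Among genes other than small RNA genes with 10 FPKM or more in the higher library of each experiment, RPL21 had the widest spread of ratios. It was listed at 0 in the untreated library of experiment 1 and at 19.1, 11.5 and 11 FPKM with palmitate. EGR1, CDKN1A, IL8 and TUBA1A came next, with ratios that lay 3.15 to 3.88 log2 units apart. The RPL21 values given are far below 2357 FPKM, the untreated median of the cytosolic ribosomal protein list, and the cause was not tested.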
